A study of Danio rerio with 24 samples.

Results

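The long arm of zebrafish chromosome 4 was described through its histone marks. Its members were the merged peaks of 6 H3K4me3 and 6 H3K27me3 libraries that lie on chromosome 4 with a start above 28000000 on GRCz10. Merging joined peaks of one mark that overlap or touch. The rule took 629 of 32354 merged regions, of which 603 of 20118 carried H3K4me3 and 26 of 12236 carried H3K27me3. No measured value entered the rule. The last peak of the chromosome ended at 76597596, so the arm was taken as the 48.6 Mb from the limit to that end. Beside it stood 28 Mb for the rest of chromosome 4 (518 and 327 regions) and 1263 Mb for the other 24 chromosomes (18643 and 11722 regions). Stretches in which reads cannot be placed were not taken out of these lengths. Merged regions on unplaced scaffolds, 354 for H3K4me3 and 161 for H3K27me3, belonged to none of these parts.

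The long arm of this chromosome is known in zebrafish as a heterochromatic, late-replicating and repeat-rich block. It holds large arrays of small RNA genes and long tandem families of zinc finger and NOD-like receptor genes, together with the miR-430 cluster that acts in the early embryo. H3K4me3 is a histone mark of promoters in use, and H3K27me3 is the mark laid down by Polycomb repressive complex at silent developmental genes.

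All libraries came from dissected intestines of AB strain larvae, wild type and carrying tg(cldn15la:GFP), at 5, 7 and 9 days post fertilization (dpf). In that transgene GFP is driven by cldn15la, a claudin gene of the intestinal epithelium, and every age carried it. ChIP-seq was done on pools of 25 intestines with 2 libraries per age and mark, with 1 input library per age from 5 intestines set aside, sequenced without an antibody. RNA was sequenced from pools of 10 intestines after removal of ribosomal RNA, with 3 libraries per age. A pool holds every cell type of the gut, and nothing in the labels says that pools of one age came from separate clutches, so p-values measure the spread between these libraries, part of which may be technical.

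The H3K4me3 lists held 16824 to 18799 peaks, the H3K27me3 lists 5704 to 9119 and the input lists 717 to 809. Since the read depth behind the peak lists is unknown, comparisons were made within each library. RNA libraries held 7014333 to 14327144 reads. The intestinal genes cldn15la (9486 to 20590 normalized counts), fabp2 (7375 to 39530), vil1 (9708 to 35930) and slc15a1b (5570 to 15070) were high in all 9 RNA libraries. The last gene of the intestinal list, cdx1b, was lower, at 264.9 to 552.4. Skeletal muscle (myhz2, myl1 and tnnt3b, 20.3 to 194.7) and germ cell genes (ddx4, nanos3, piwil1 and dazl, 3.87 to 64.5) were low, while exocrine pancreas genes (cpa5, ctrb1 and ela2) ran from 247.2 to 3476 and liver genes (fabp10a, tfa and ambp) from 35.0 to 1594.

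H3K27me3 was nearly missing from the long arm. The 2 libraries at 5 dpf had 13 and 7 peaks there, those at 7 dpf had 8 and 6, and those at 9 dpf had 16 and 18. This came to 0.268 and 0.144 peaks per Mb at 5 dpf, 0.165 and 0.123 at 7 dpf and 0.329 and 0.370 at 9 dpf. On the other chromosomes the same libraries had 4.69, 4.35, 4.50, 4.56, 6.92 and 6.63 peaks per Mb, and on the rest of chromosome 4 they had 5.46, 5.07, 5.79, 5.54, 8.96 and 8.64. Every library was far lower on the arm, with no overlap between the arm and either comparison. The density ratio of the arm to the other chromosomes was 0.0413, a log2 ratio of -4.60 ± 0.44 (SD, n = 6 libraries; exact two-sided sign-flip permutation test, p = 0.0312, the smallest that 6 libraries can give, adjusted p = 0.0375 over 18 tests). Against the rest of the same chromosome the log2 ratio was -4.90 ± 0.42 (SD, n = 6; same exact test, p = 0.0312, adjusted p = 0.0375). This test asks whether the 6 libraries agree on a difference. It does not show how the arm ranks among chromosomes.

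The share of sequence under H3K27me3 peaks moved in the same direction. Between 0.0298% and 0.0411% of the arm was covered, against 0.868% to 1.155% of the other chromosomes and 0.837% to 1.28% of the rest of chromosome 4. The log2 ratios were -4.77 ± 0.11 and -4.80 ± 0.18 (SD, n = 6; exact sign-flip permutation test, adjusted p = 0.0375 each). The 24 other chromosomes held between 7.43 (chromosome 11) and 12.5 (chromosome 10) merged regions per Mb, whereas the long arm held 0.535. The longest stretch of the arm without a merged H3K27me3 region was 11.6 Mb, and the longest on any other chromosome was 2.49 Mb (chromosome 5).

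**Figure D1:**
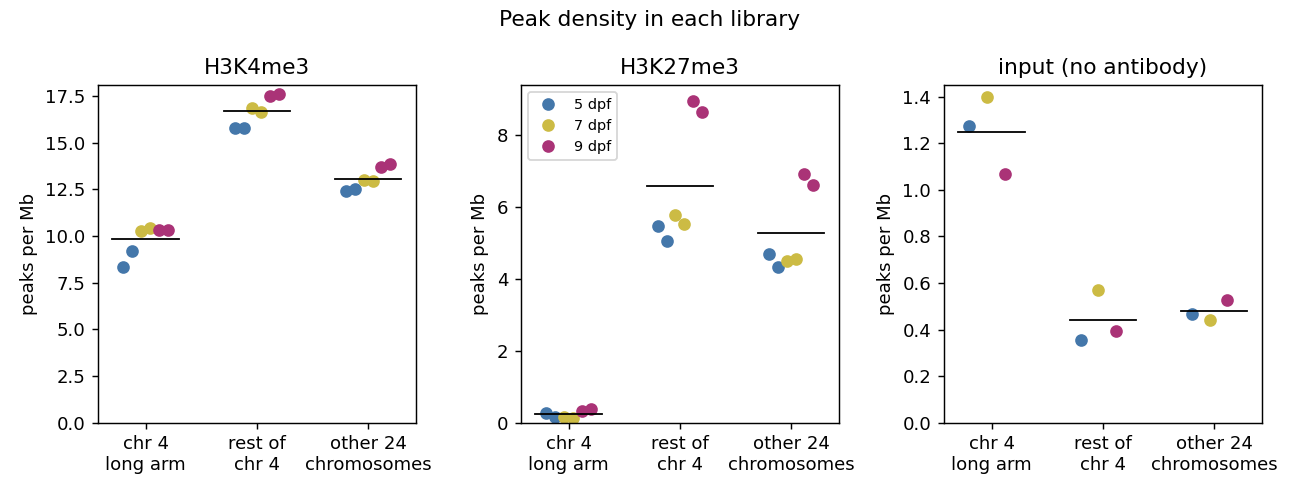
Peaks per Mb (vertical axis) on the chromosome 4 long arm, the rest of chromosome 4 and the other 24 chromosomes for H3K4me3, H3K27me3 and input; each point is 1 library, coloured by age, and lines are means. The H3K27me3 points of the arm sit between 0.123 and 0.370, the H3K4me3 points between 8.35 and 10.4, and the input points of the arm (1.07 to 1.40) are above those of both comparisons.

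Input peaks were denser on the arm than elsewhere in each of the 3 input libraries. These libraries, which show where reads pile up without an antibody, had 62, 68 and 52 peaks there at 5, 7 and 9 dpf. Their arm densities of 1.28, 1.40 and 1.07 peaks per Mb compared with 0.466, 0.441 and 0.526 on the other chromosomes and 0.357, 0.571 and 0.393 on the rest of chromosome 4. In merged form the arm held 86 input regions, or 1.77 per Mb, above each of the 24 other chromosomes (0.328 to 1.14). With 1 input library per age these values were not tested. A cluster of 16 of the 86 input regions lay between chr4:28562691-28755083.

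Input peaks lay under a large share of the few H3K27me3 regions. Of the 26 H3K27me3 regions of the arm 10 (38.5%) overlapped an input peak, against 1.07% on the other chromosomes. Those 10 had a median fold enrichment of 2.14 and a range of 1.64 to 3.90, and none was found in all 6 libraries. The other 16 had a median fold of 3.81 and a range of 3.02 to 5.33. Fold enrichment is the value the authors' peak caller gave each peak over its local background. In the tests, each library's folds were compared only within its own list. The fold of a merged region is the median over the libraries with a peak there. Median H3K4me3 fold on the other chromosomes ran from 8.43 to 12.3 between libraries. Folds of regions found in different libraries are therefore not on 1 scale. Of the 603 H3K4me3 regions 11 (1.82%) overlapped an input peak, against 0.247% on the other chromosomes. Without peaks that overlap an input peak the H3K27me3 density ratio was lower still, at -4.99 on the log2 scale, and the H3K4me3 ratio given next was -0.44.

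H3K4me3 was present along the whole arm. Taken over the arm's full length, its peaks were fewer, narrower and weaker than elsewhere. Merged regions were denser toward the ends than the 14.8 per Mb of the other chromosomes. The first 4 Mb held 17.0 per Mb and the stretch beyond 68 Mb held 18.3. The arm had 406 and 448 peaks at 5 dpf, 499 and 507 at 7 dpf, and 502 in each library at 9 dpf. Density was 8.35 and 9.22 peaks per Mb at 5 dpf, 10.3 and 10.4 at 7 dpf, and 10.3 in both libraries at 9 dpf. The other chromosomes had 12.4, 12.5, 13.01, 12.97, 13.7 and 13.8 peaks per Mb in the same libraries, and the rest of chromosome 4 had 15.8, 15.8, 16.9, 16.7, 17.5 and 17.6. The arm was the lowest in every library and its range did not overlap either comparison. Its density was 0.749 times that of the other chromosomes, a log2 ratio of -0.42 ± 0.09, and -0.77 ± 0.08 against the rest of chromosome 4 (SD, n = 6; exact sign-flip permutation test, p = 0.0312, adjusted p = 0.0375 each). In merged regions the arm's 12.4 per Mb was not outside the range of whole chromosomes, since chromosome 18 had 12.1, and the highest was chromosome 22 with 20.4.

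Width set the arm apart more than number did. Median H3K4me3 peak width on the arm was 367.5 and 460.5 bases at 5 dpf, 481 and 466 at 7 dpf, and 545 and 522.5 at 9 dpf. The other chromosomes had medians of 822, 949, 1021, 999, 1070 and 1039 bases. The 2 sets did not overlap, and the log2 ratio was -1.06 ± 0.07 (SD, n = 6; exact sign-flip permutation test, p = 0.0312, adjusted p = 0.0375). Against the rest of chromosome 4 it was -1.03 ± 0.07 (SD, n = 6; adjusted p = 0.0375 by the same exact test). Of the 603 merged H3K4me3 regions 97 (16.1%) were 1000 bases or wider and 270 (44.8%) were under 500 bases. On the other chromosomes 61.2% were 1000 bases or wider and 14.2% under 500. Chromatin was sheared to about 300 bp, so the narrowest of these regions, 135 bases, was shorter than a fragment.

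**Figure D2:**
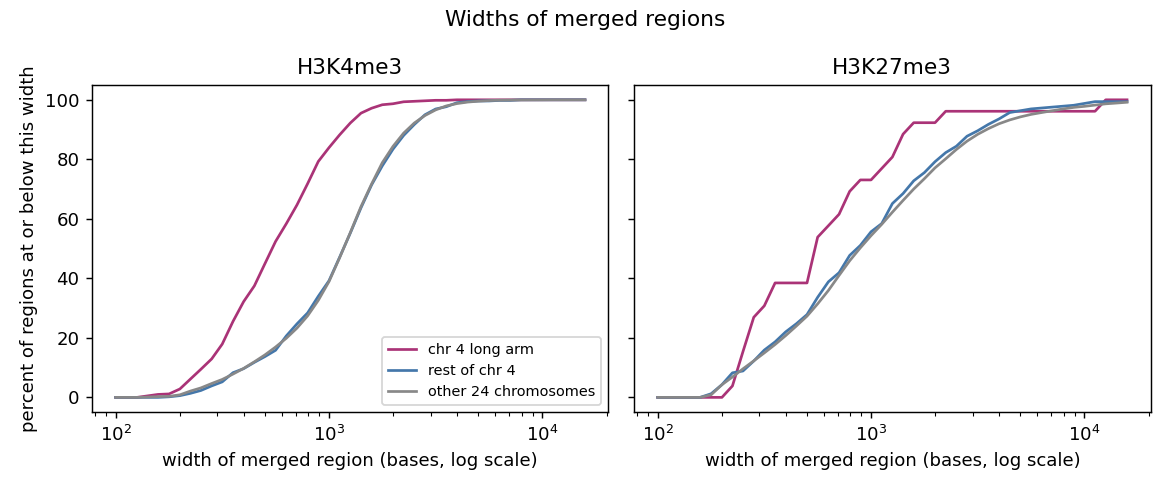
Percent of merged regions (vertical axis) at or below a given width (horizontal axis, bases, log scale) for H3K4me3 and H3K27me3. The H3K4me3 curve of the long arm lies to the left of the 2 overlapping curves for the rest of chromosome 4 and the other chromosomes, with medians of 539, 1174.5 and 1173 bases; the H3K27me3 curve of the arm rests on 26 regions.

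With fewer and narrower peaks, H3K4me3 covered 0.373% to 0.646% of the arm, 1.158% to 1.65% of the other chromosomes and 1.41% to 2.08% of the rest of chromosome 4. The log2 ratios of covered share were -1.42 ± 0.11 and -1.73 ± 0.10 (SD, n = 6; exact sign-flip permutation test, adjusted p = 0.0375 each). Over merged regions the arm's covered share, 0.809%, was below that of all 24 other chromosomes, whose lowest was 1.61% (chromosome 18). The median gap between neighbouring H3K4me3 regions was 40766 bases on the arm, longer than on all 24 (16833.5 to 35918). Its longest gap, 0.803 Mb, was shorter than the longest gap of 21 of them.

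Peak fold was also lower on the arm. Median H3K4me3 fold on the arm was 6.55 and 6.13 at 5 dpf, 6.74 and 6.53 at 7 dpf, and 7.78 and 7.32 at 9 dpf, while on the other chromosomes it was 8.59, 8.43, 9.34, 9.23, 12.3 and 11.8. All 6 libraries were lower on the arm, by -0.53 ± 0.12 on the log2 scale (SD, n = 6; exact sign-flip permutation test, p = 0.0312, adjusted p = 0.0375). Against the rest of chromosome 4 the difference was -0.46 ± 0.10 (SD, n = 6; same exact test, adjusted p = 0.0375). H3K27me3 folds differed by less, with arm medians of 3.38 to 3.82 and medians of 3.90 to 4.29 elsewhere, a log2 ratio of -0.16 ± 0.03 (SD, n = 6; exact sign-flip permutation test, adjusted p = 0.0375), which rests on 6 to 18 arm peaks per library. For H3K27me3 width the arm medians ran from 277 to 1047 bases and 1 of 6 libraries was wider on the arm, so the log2 ratio of -0.70 ± 0.60 did not pass (SD, n = 6; exact sign-flip permutation test, p = 0.0625, adjusted p = 0.0662).

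How many libraries share a region was counted without a test. Of the 603 H3K4me3 regions of the arm 348 (57.7%) had a peak in all 6 libraries and 71 (11.8%) in 1, against 77.3% and 7.12% on the other chromosomes. The 348 shared regions had a median width of 738 bases and a median fold of 7.60, and the 71 single ones 229 bases and 4.67. Of the 26 H3K27me3 regions 4 (15.4%) were in all 6 libraries, against 27.99% elsewhere.

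The H3K4me3 regions were not spread evenly. In steps of 4 Mb, the first step inside the limit had 68 regions, 17.0 per Mb, with a median width of 638.5 bases and a median fold of 7.41. The 9 steps from 32 to 68 Mb held 7.00 to 15.25 regions per Mb, with median widths of 402 to 535 bases and median folds of 5.04 to 6.29. Beyond 68 Mb the next steps had 17.75 and 19.5 regions per Mb, widths of 874 and 828 bases and folds of 9.77 and 8.90. The last 0.598 Mb held 8 regions, 13.4 per Mb, with a median width of 533.5 bases and a median fold of 6.54, closer to the middle steps in width and fold.

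Summed over these stretches, which were drawn after the profile was seen and so carry no test, the middle 36 Mb held 378 of the 603 regions. Of those 378, 44.97% were in all 6 libraries, against 76.5% of the 68 proximal and 80.3% of the 157 distal regions. All 6 libraries had the same order of median width, with the middle at 272.5 to 436 bases, the proximal stretch at 401 to 616 and the distal end at 585 to 754. Medians of fold ran from 5.47 to 6.53 in the middle, 6.53 to 9.62 in the proximal stretch and 7.89 to 11.5 at the distal end. The distal end, with 18.3 regions per Mb and a median fold of 9.07, was within the range of the 24 other chromosomes in both (12.1 to 20.4 per Mb and 7.93 to 9.21), while its median width of 823 bases was below the 1034 bases of the lowest of them (chromosome 22). The other chromosomes together had 14.8 regions per Mb and a median fold of 8.67, so the distal end was above them in both. The proximal stretch was above them in density alone.

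**Figure D3:**
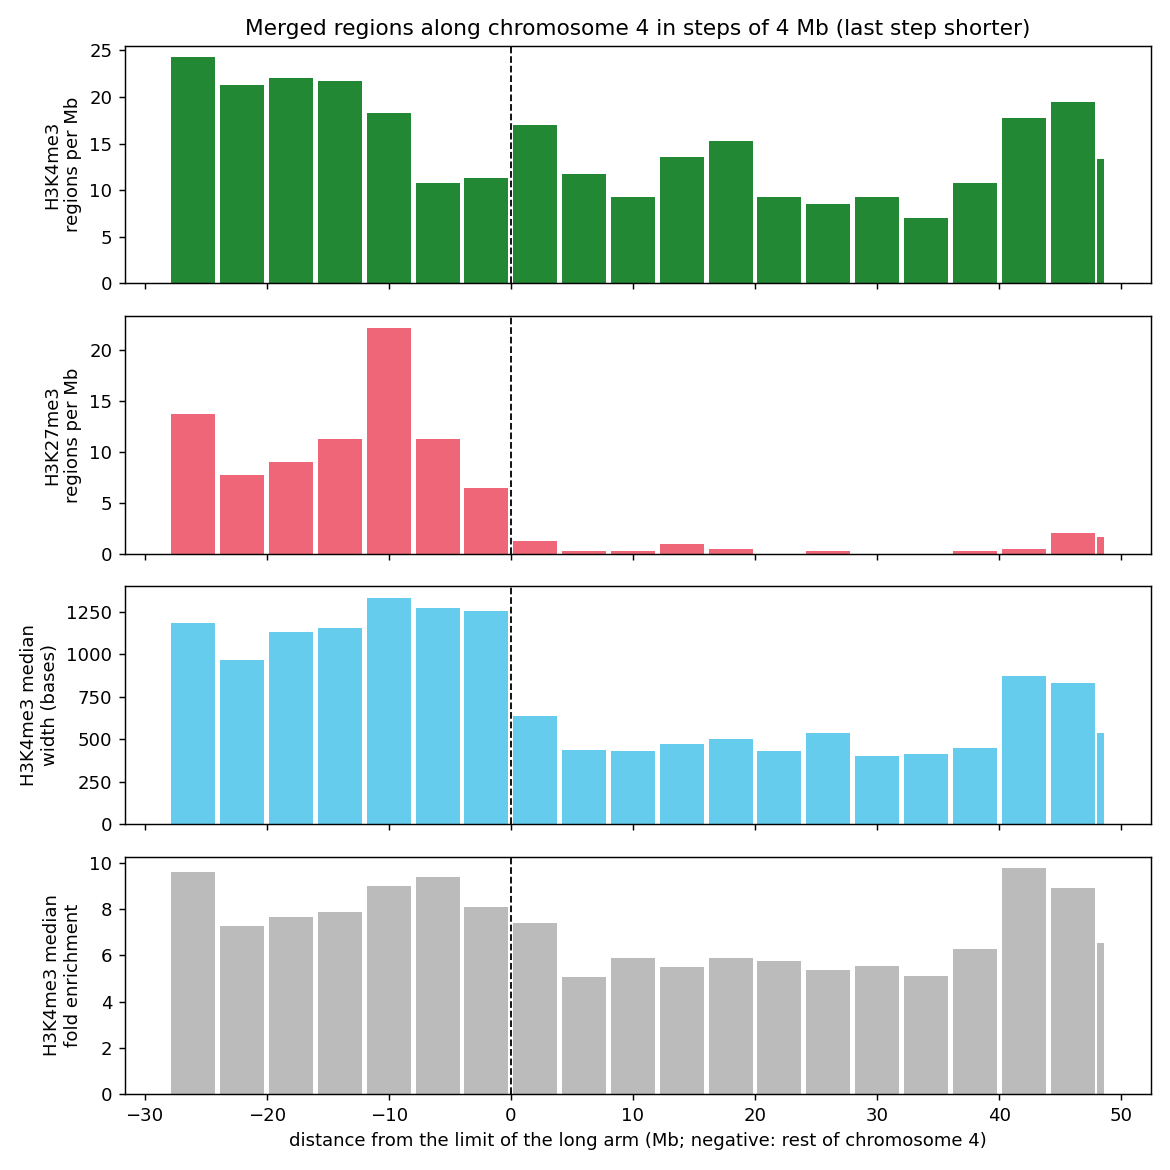
Merged regions along chromosome 4 in steps of 4 Mb, by distance from the limit of the long arm (horizontal axis, Mb, dashed line at 0); panels give H3K4me3 density, H3K27me3 density, H3K4me3 median width and H3K4me3 median fold. H3K27me3 drops from 6.50 regions per Mb in the last step before the limit to 1.25 in the first step after it, and H3K4me3 width and fold dip between the 2 ends of the arm.

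Single regions show the range. The widest H3K4me3 region of the arm, chr4:70999774-71003383, covered 3610 bases and had a peak in all 6 libraries, with folds of 12.9 and 13.03 at 5 dpf, 14.6 and 17.7 at 7 dpf, and 14.4 and 18.7 at 9 dpf. Next in width were chr4:28343636-28346706 (3071 bases, median fold 11.2), chr4:72007843-72010373 (2531 bases, 9.41), chr4:28383877-28386151 (2275 bases, 9.88) and chr4:71140179-71142416 (2238 bases, 6.74). All 5 lay in the first or the last stretch and none carried H3K27me3 or overlapped an input peak. By median fold the leading region was chr4:70746619-70748071, with 18.1. The second, chr4:70893863-70895120, had folds of 12.6 and 14.6 at 5 dpf, 17.4 and 18.5 at 7 dpf, and 48.1 and 41.0 at 9 dpf. Its 9 dpf values were the highest of any arm peak in those lists. The limit itself fell in a gap: the nearest H3K4me3 regions outside were chr4:27906972-27908255 and chr4:27909279-27910356, with median folds of 14.7 and 12.4, and the nearest inside were chr4:28188092-28188929, with 11.3, and chr4:28190615-28190964, with 3.68. For H3K27me3 the nearest outside, chr4:27408959-27410908, was in all 6 libraries with a fold of 4.15, and the nearest inside, chr4:28575179-28575426, was in 2 with 2.08 and lay over an input peak.

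Only 4 H3K27me3 regions of the arm had a peak in all 6 libraries. A single domain, chr4:72927562-72939023, took up 11462 of the 28667 bases that the mark covered on the arm. Its folds were 3.75 and 3.38 at 5 dpf, 3.64 and 3.84 at 7 dpf, and 4.31 and 4.01 at 9 dpf. Beside it, chr4:72924444-72926631 spanned 2188 bases with folds of 3.50 to 4.58. The 2 others were chr4:73483653-73485235 (1583 bases, 3.06 to 3.97) and chr4:47029971-47031281 (1311 bases, 3.26 to 5.88). None of the 4 overlapped an input peak. The distal stretch held 11 of the 26 regions and 3 of these 4, and the remaining 1 stood in the middle of the arm. All 5 proximal regions overlapped input peaks, with median folds of 1.64 to 2.08.

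Regions carrying both marks were scarce. Of the 603 H3K4me3 regions 8 (1.33%) overlapped an H3K27me3 region, against 21.9% on the other chromosomes, where single chromosomes ran from 12.5% to 27.7%. Taken per library and against H3K27me3 regions of the same age, 0.493% and 0.670% of arm H3K4me3 peaks were shared at 5 dpf, 0.802% and 0.986% at 7 dpf, and 1.39% in both libraries at 9 dpf. The same libraries shared 11.1%, 11.8%, 13.4%, 13.2%, 19.8% and 20.1% elsewhere. The difference was -13.9 ± 3.65 percentage points (SD, n = 6; exact sign-flip permutation test, p = 0.0312, adjusted p = 0.0375). With 26 H3K27me3 regions beside 603 H3K4me3 regions, the arm could hardly reach the shares found elsewhere. The test therefore cannot separate this share from the low number of H3K27me3 regions, and no further result was read from it. In the other direction 8 of 26 H3K27me3 regions (30.8%) overlapped H3K4me3, against 32.04% elsewhere, and the per-library difference of 3.17 ± 8.56 percentage points did not pass (SD, n = 6; exact sign-flip permutation test, p = 0.406, adjusted p = 0.406). That difference depends on the peaks kept: it was -20.0 points with peak scores of 50 or more, 11.9 without peaks over input peaks and 8.97 with the limit at 35 Mb, each with adjusted p = 0.0352 by the same exact permutation test, so no direction was read from it. The 2 places with both marks in all 12 libraries were the pair chr4:72923481-72924601 (H3K4me3) and chr4:72924444-72926631 (H3K27me3), which share 158 bases, and chr4:73483451-73485487, an H3K4me3 region with a median fold of 10.2 that contains all 1583 bases of chr4:73483653-73485235.

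No change with age in the arm's peak density or covered share passed the test. Relative to the other chromosomes of the same library, H3K4me3 density on the arm was 0.672 and 0.737 at 5 dpf, 0.789 and 0.804 at 7 dpf, and 0.755 and 0.746 at 9 dpf. Both 5 dpf values were below the other 4, yet the change from 5 to 9 dpf, 0.09 on the log2 scale, did not pass (exact two-sided permutation of ages over 6 libraries, 90 arrangements, p = 0.422, adjusted p = 0.563 over 4 tests). The covered share changed by 0.15 (same exact permutation, p = 0.111, adjusted p = 0.444). Without the first 5 dpf library these changes were 0.03 and 0.04, and without the second 0.16 and 0.26. For H3K27me3 the density ratio was 0.0570 and 0.0331 at 5 dpf, 0.0366 and 0.0271 at 7 dpf, and 0.0476 and 0.0559 at 9 dpf, with a change of 0.25 (exact permutation, p = 0.578, adjusted p = 0.578), which was 0.64 without the first 5 dpf library and -0.14 without the second. Its covered share changed by -0.10 (exact permutation, p = 0.378, adjusted p = 0.563), and by 0.027 without the first 5 dpf library. The smallest p this design allows is 0.0222. The fold ratio of H3K4me3 was 0.762 and 0.728 at 5 dpf, 0.722 and 0.707 at 7 dpf, and 0.632 and 0.619 at 9 dpf, so both 9 dpf libraries were below the other 4. The width ratio went the opposite way, at 0.447 and 0.485 at 5 dpf, 0.471 and 0.466 at 7 dpf, and 0.509 and 0.503 at 9 dpf, with both 9 dpf libraries above the other 4. These 2 ratios were not tested for age.

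**Figure D4:**
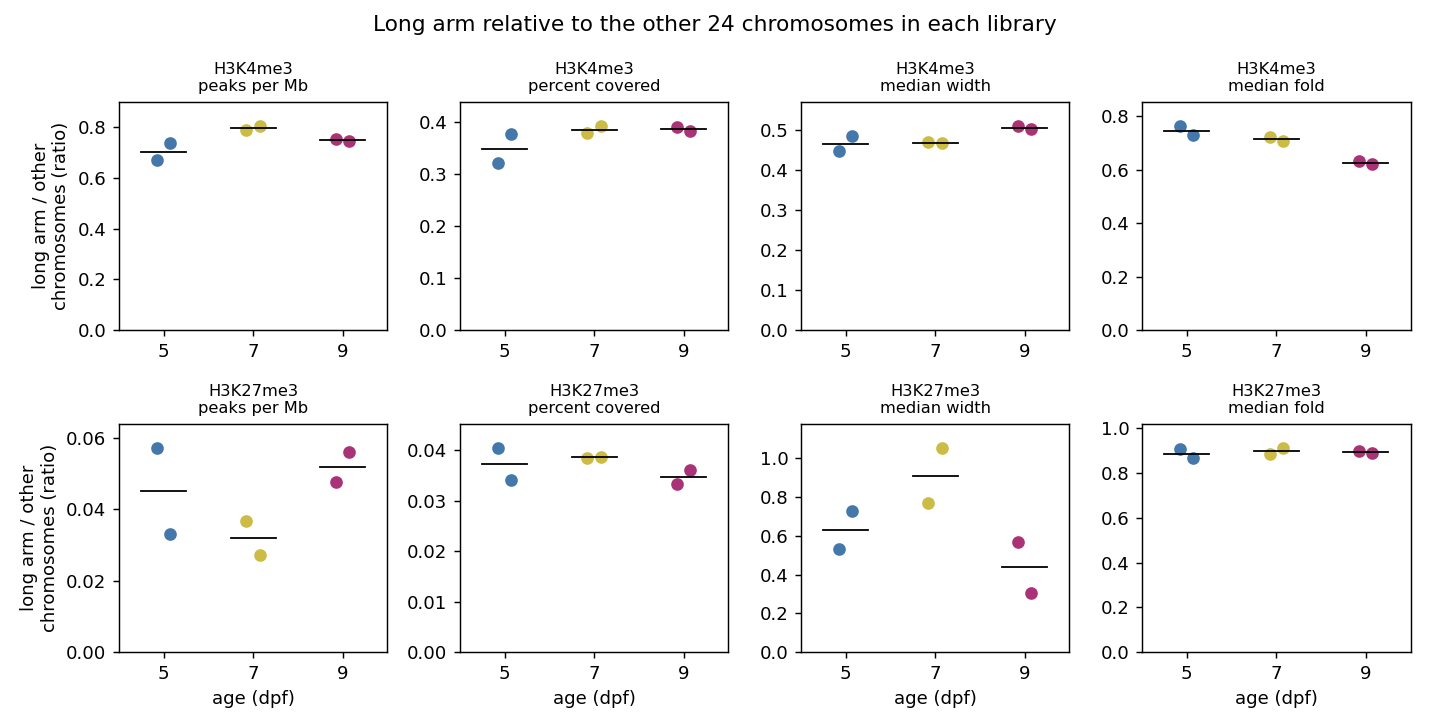
Ratio of the long arm to the other chromosomes (vertical axis, from 0) in each library by age (horizontal axis, dpf), for peak density, percent covered, median width and median fold of H3K4me3 (top) and H3K27me3 (bottom); points are libraries and lines are means of 2. The H3K4me3 fold ratio, pooled over all stretches of the arm, goes from 0.762 and 0.728 at 5 dpf to 0.632 and 0.619 at 9 dpf, while the H3K27me3 width ratio spans 0.306 to 1.05.

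Region by region, a gain means a peak in both libraries of the later age and in neither of the earlier one, and a loss the reverse; these are counts with no test. From 5 to 9 dpf 49 of 603 H3K4me3 regions of the arm (8.13%) were gained, against 6.61% of all 20118 regions, and 6 (0.995%) were lost, against 0.313%. From 5 to 7 dpf 38 (6.30%) were gained, against 2.97%, and 1 (0.166%) was lost, against 0.442%. From 7 to 9 dpf 13 (2.16%) were gained, against 3.34%, and 12 (1.99%) were lost, against 0.517%. A region with a peak in all 6 libraries can be neither gained nor lost. Such regions were 57.7% of the arm's H3K4me3 regions and 77.3% of those on the other chromosomes. The shares thus rest on unlike denominators, and no excess or lack of gains or losses on the arm was read from them. Of the 49 regions gained by 9 dpf, 25 had a peak in both 7 dpf libraries, 11 in 1 of them and 13 in neither.

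The gained H3K4me3 regions were narrow, but a gain allows a peak in at most 4 of the 6 libraries. Arm regions with a peak in 2, 3 or 4 libraries, whatever the age, had median widths of 308.5, 346 and 416.5 bases. The gained regions had a median width of 418 bases, so no trait of gains was read from it. Their median folds ran from 3.65 to 9.43, 2 of the 49 reached 1000 bases and none overlapped H3K27me3 or an input peak. Of the 49, 40 lay in the middle stretch, 3 in the proximal and 6 in the distal one, or 10.6%, 4.41% and 3.82% of the regions there. Regions with a peak in all 6 libraries cannot be gained, and they made up 44.97%, 76.5% and 80.3% of those stretches. The placement of gains was therefore not read as a trait of any stretch. By median fold the strongest gain was chr4:45380984-45381496, which had no peak at 5 dpf, 1 at 7 dpf with a fold of 6.93, and folds of 9.43 and 11.9 at 9 dpf. Next came chr4:69340326-69340744, with folds of 5.997 and 7.78 at 7 dpf and 10.8 in both libraries at 9 dpf, and chr4:58242603-58242983, with 8.14 and 9.15 and then 8.13 and 9.73. The 2 others named, chr4:63903019-63903619 and chr4:31701753-31702199, had peaks at 9 dpf alone, with folds of 6.84 to 7.23. Among the 6 losses the strongest, chr4:56957127-56957385, was 259 bases wide, with folds of 5.67 and 4.55 at 5 dpf and no peak later.

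For H3K27me3 the counts on the arm were 6 gained and 3 lost from 5 to 9 dpf (background 12.2% gained and 1.47% lost), 0 gained and 3 lost from 5 to 7 dpf (2.37% and 2.87%), and 5 gained and 0 lost from 7 to 9 dpf (11.3% and 0.817%). With 26 regions in all, no reading of these counts was made. Among the 6 gained were chr4:73312320-73313126, with a fold of 4.08 in 1 library at 7 dpf and 4.23 and 4.09 at 9 dpf, and chr4:72792427-72793501, with 3.38 in 1 library at 7 dpf and 3.39 and 3.93 at 9 dpf. Both lay in the distal stretch and both overlapped H3K4me3. Of the 6 gained 3 lay over input peaks.

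RNA was examined for genes of the arm by name, since no annotation of GRCz10 was used here. Of 30263 genes measured, 17967 were placed on a chromosome by their symbol in the RefSeq gene table of GRCz12tu, another assembly. The 208 arm genes were those on chromosome 4 with a start above 28000000 in that assembly. That limit was set on GRCz10, so genes near it may lie on its other side there. Genes were therefore not joined to peaks. Of the 208, 155 passed the filter of at least 10 normalized counts in 3 of 9 libraries. In such pools fewer cells of a type and less RNA per cell cannot be told apart.

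Arm genes had low counts, and 6 of 155 passed from 5 to 9 dpf. The tested arm genes had a median mean of 41.0 normalized counts, against 80.0 over all 24298 genes tested, on a scale not corrected for gene length. From 5 to 9 dpf 5 arm genes rose and 1 fell among the 155 tested, while 12.6% of all tested genes were higher and 4.28% lower (limma, adjusted p under 0.05). From 5 to 7 dpf 0 passed, where 2.63% of all were higher and 1.43% lower. At an unadjusted p under 0.05 (limma) there were 11 of the 155, beside 4091 of all 24298 genes tested. edgeR and DESeq2 on recovered reads also called 0 of the arm genes. From 7 to 9 dpf 3 rose and 0 fell, where 1.5% of all were higher and 0.383% lower. The split of rises and falls from 5 to 9 dpf was 4 to 2 with no filter, 4 to 3 with TMM scaling and with edgeR, and 7 to 6 with quantile scaling. Leaving out the second 9 dpf library left 3 calls from 5 to 9 dpf. Calls over all genes under these settings are not set beside them, so the counts show only that the arm calls move with the setting.

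Of the 5 genes that rose, 3 stood at the start of the arm in the gene order. creld2, which encodes a protein of the endoplasmic reticulum, was at 67.1, 66.2 and 75.8 normalized counts at 5 dpf, 38.8, 51.3 and 66.1 at 7 dpf, and 121.8, 165.8 and 129.3 at 9 dpf. All 3 libraries at 9 dpf were above the other 6, and the log2 change from 5 to 9 dpf was 0.98 (SE 0.21, limma adjusted p = 0.00282). From 7 to 9 dpf it was 1.42 (SE 0.21, limma adjusted p = 0.000717). alg12, a mannosyltransferase that builds the sugar precursor of N-glycosylation, followed the same course, at 88.6 to 97.9 at 5 dpf, 79.4 to 102.7 at 7 dpf and 147.2 to 161.9 at 9 dpf, with log2 changes of 0.70 (limma adjusted p = 0.00769) from 5 and 0.80 (0.0170) from 7 dpf.

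Also higher at 9 dpf than at both earlier ages was gramd4a, a GRAM domain gene, at 117.5 to 156.1, 132.0 to 166.3 and 215.2 to 283.7 normalized counts at the 3 ages (5 to 9 dpf log2 0.93, SE 0.18, limma adjusted p = 0.00124; 7 to 9 dpf 0.74, adjusted p = 0.0350). In the GRCz12tu gene order creld2, alg12 and gramd4a are number 2, 3 and 8 of the 208. They are thus among the genes nearest the limit, and their place on the GRCz10 arm was not checked. rab3ip, an exchange factor for the vesicle transport protein Rab8 in mammals, is number 145 and rose by 0.71 from 268.2 ± 48.9 to 438.2 ± 62.4 (SD, n = 3 each; SE 0.20, limma adjusted p = 0.0160). The clone-named si:cabz01071911.4 rose by 0.50 (limma adjusted p = 0.0453). slco1f1, an organic anion transporter gene, was the gene that fell, by 1.11 on the log2 scale from 25.9 ± 2.07 to 11.9 ± 4.21 (SD, n = 3 each; SE 0.34, limma adjusted p = 0.0311).

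The last 3 of these calls did not hold in every fit with 1 library left out. rab3ip had limma adjusted p = 0.0689, 0.0982 and 0.0532 without the second 5 dpf library, the second 9 dpf library and the third. slco1f1 had limma adjusted p = 0.0820, 0.0931, 0.0510, 0.0669 and 0.146 without each 5 dpf library in turn and without the first and second 9 dpf library. si:cabz01071911.4 had limma adjusted p from 0.0617 to 0.144 without any 1 of the 3 libraries at 5 dpf, the 3 at 9 dpf or the first at 7 dpf.

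**Figure D5:**
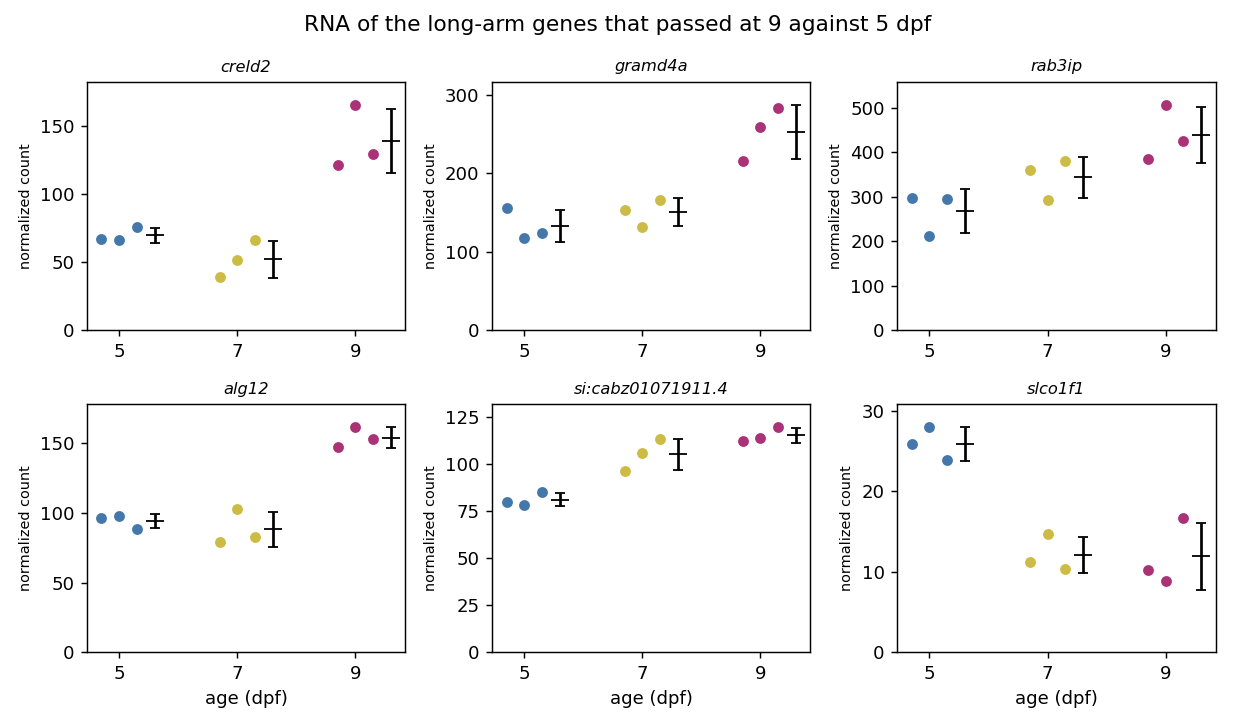
Normalized counts (vertical axis, from 0) of the 6 long-arm genes that passed at 9 against 5 dpf, in each RNA library by age (horizontal axis, dpf); points are libraries and bars are mean and SD of 3. creld2, gramd4a and alg12 have all 3 libraries at 9 dpf above the other 6, and slco1f1 has all 3 libraries at 5 dpf above the other 6.

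Families were read from gene symbols, so zinc finger here means a symbol that starts with znf. Any zinc finger gene with a clone name was counted as clone-named. By this rule 25 zinc finger genes were placed on the arm, of which 16 were tested and 0 passed in any interval (limma). At an unadjusted p under 0.05 (limma) there were 0, 1 and 0 of the 16 from 5 to 9, 5 to 7 and 7 to 9 dpf. Among all 24298 genes tested there were 7820, 4091 and 3788. edgeR and DESeq2 called 0 of the 16. Over all tested genes 16.85%, 4.054% and 1.885% passed in those intervals (limma), so in the last 2 intervals 0 of 16 is near the background and is no result about the family. The gene means of the 16 ran from 7.31 to 80.8 normalized counts, with znf1140 the highest. Their median was 25.4, against 80.05 over all tested genes. With so few genes at such low counts, no result about the family was read from 5 to 9 dpf either. The 3 TRIM family genes, trim24, ftr51 and ftr64, were tested and 0 passed with limma or DESeq2, while edgeR called 1 from 5 to 9 dpf. In that interval 7820 of all 24298 genes tested had an unadjusted p under 0.05 (limma), as did 1 of these 3. Among them trim24, a transcriptional co-regulator, went from 411.3 ± 47.1 at 5 dpf to 311.2 ± 18.8 at 9 dpf (SD, n = 3 each; log2 -0.40, limma adjusted p = 0.129). The 4 miR-430 genes, whose products clear maternal messages in the embryo, had gene means of 0.207 to 3.08 and none passed the filter. Of 130 clone-named genes 94 were tested and 1 rose from 5 to 9 dpf, beside 12.6% higher among all tested genes, a call that edgeR and DESeq2 did not make. The remaining 46 named genes, 42 of them tested, gave the other 4 rises and the 1 fall, beside 12.6% higher and 4.28% lower among all tested genes. No result about named genes was read from these counts. Near-identical copies are common in these families, and how the authors counted reads that match several copies is not given in the sources used here, so values of clone-named and zinc finger genes are uncertain.

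Named genes lay toward the ends in gene order. Of the 46 outside these families, 12 were among the first 69 of the 208 and 33 among the last 69, with 1 in between, where 58 clone-named and 11 znf-named genes stood. The 12 were numbers 1 to 12 of the GRCz12tu order, nearest the limit, and celsr1a, named next, is number 9. Their place on the GRCz10 arm was not checked. The arm genes with the highest mean counts, which are not corrected for gene length, were celsr1a, a cadherin of planar cell polarity, with a mean of 1341 normalized counts, si:dkey-26m3.3 with 815.9, slco1d1, an organic anion transporter, with 786.6, nup50 of the nuclear pore with 637.2 and ptprb, a receptor phosphatase of blood vessels, with 481.3. None of these 5 passed from 5 to 9 dpf; nup50 had a log2 difference of 0.49 (limma adjusted p = 0.109) and ptprb of -0.51 (0.0686).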

How the data were processed

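Gapped peaks were deposited per library. The tools that the submitters' processing notes name are BWA 0.7.15, Picard and MACS2 2.1.1, with GRCz10 as the build. A peak's deposited score is 10 times its -log10 q rounded down for all but 7 of 150436 peaks, and is 30 or more in these files. A fold enrichment (a ratio, by the authors) and a -log10 p and -log10 q were deposited too. The control used is not given in the sources used here. RNA values are a deposited signal: read counts divided by 1 size factor per library, made, per the submitters' notes, with STAR 2.5.2b and DESeq2 1.16.1. Whole reads were recovered for 100% of values within 1e-06.

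The members and lists were chosen with earlier results of these data known. Peaks of a mark that overlap or touch were merged over its 6 libraries. Coordinates are GRCz10, counted from 1. Length of a chromosome was the end of its last peak. Density, covered share, median width, median fold and sharing were computed per library and compared by exact sign-flip permutation over 6 libraries, with Benjamini-Hochberg adjustment over 18 tests; age was permuted exactly over 90 arrangements, adjusted over 4 tests. RNA was fitted with limma 3.58.1 on log2(value + 1) with trend and robust variances in 1 fit of 9 libraries, adjusted over 24298 genes; edgeR 4.0.16 and DESeq2 1.42.0 on recovered reads were alternatives. Adding 1 understates the change of weakly expressed genes. Scripts were tested on simulated data. Regions named in the text are the 5 widest, the 5 of highest fold, those with both marks in all 12 libraries, the 5 strongest gains and losses and the neighbours of the limit, shortened where values repeat. Genes are the 10 with the highest mean counts and those that passed. NOD-like receptor and small RNA gene arrays were not analysed here by name. The erythrocyte gene hbbe1.1 (13.7 to 69.8 normalized counts) and the neuronal genes elavl3 and snap25a (40.7 to 113.1) complete the marker check. The planned markers prss1 (exocrine pancreas) and hbae1.1 (erythrocyte) were not found by symbol among the genes measured.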

Additional observations from a re-analysis of the deposited data

How the results depend on the processing

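Of 140 values of the peak results recomputed with every library kept, 129 were counted as unchanged under the settings tried (score of 50 or more, equal list lengths, another limit at 35 Mb, no peaks over input peaks, peaks joined within 1000 bases, length over occupied 100 kb bins, stricter overlap, replicate block, regions with both libraries of an age) and 11 were not, all of them H3K27me3. For a tested result, unchanged means the same direction and side of the threshold. Some of the values are counts of merged regions, which have no threshold and were judged by how far the count moved. The share of H3K27me3 peaks that carry H3K4me3, 3.17 points higher on the arm, passed as lower with scores of 50 or more (-20.0) and as higher without peaks over input peaks (11.9) or with the limit at 35 Mb (8.97); it was -3.01 with equal list lengths and -1.55 with 0.5 of the shorter peak as the overlap, neither of which passed. H3K27me3 width passed with equal list lengths (-1.08 against other chromosomes, -1.07 against the rest of chromosome 4) and with peaks joined (-0.996 and -0.95). The H3K27me3 age change of density was -0.074 without peaks over input peaks. Requiring both libraries of an age left 16 of the 26 H3K27me3 regions. With quantile scaling 13, 2 and 5 arm genes passed from 5 to 9, 5 to 7 and 7 to 9 dpf. Calls over all genes under this and the other RNA settings are not set beside the arm counts. No excess or lack of calls on the arm was therefore read from them. The causes of the differences between settings were not tested.

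Leaving out 1 library of 6 allows no p under 0.0625, so no arm contrast can pass. For H3K4me3 against other chromosomes they ran from -0.44 to -0.38 for density, -1.44 to -1.38 for covered share, -1.08 to -1.04 for width and -0.56 to -0.50 for fold; against the rest of chromosome 4 from -0.79 to -0.74, -1.75 to -1.70, -1.04 to -1.004 and -0.48 to -0.43; sharing ran from -14.6 to -13.0 points. For H3K27me3 density ran from -4.69 to -4.47 and -5.01 to -4.79, covered share from -4.79 to -4.74 and -4.85 to -4.75, and fold from -0.17 to -0.15 and -0.16 to -0.15. The H3K27me3 width ratios moved more, from -0.85 to -0.50 and -0.82 to -0.46, as did sharing, from 1.07 to 5.18 points. The H3K4me3 age changes ran from 0.03 to 0.16 for density and 0.04 to 0.26 for covered share, lowest without the first 5 dpf library and highest without the second. The H3K27me3 age changes ran from -0.14 to 0.64 for density and -0.22 to 0.027 for covered share, each turning sign without 1 of the 5 dpf libraries. Arm genes passing ran from 3 to 7 (5 to 9 dpf), 0 to 1 (5 to 7 dpf, 1 without the first 5 dpf library or the third at 7 dpf) and 1 to 3 (7 to 9 dpf, 1 without the first 7 dpf or the second 9 dpf library or the third).

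Replicate numbers were not read as pairs: same-number RNA libraries correlated from -0.42 to 0.47 after subtraction of age means and 1 of 9 correlated best with its own number. With the replicate block 6, 0 and 4 arm genes passed, si:cabz01071911.4 was lost (limma adjusted p = 0.0714), and the peak age changes of 0.09, 0.15, 0.25 and -0.10 had exact permutation p = 0.444, 0.167, 0.667 and 0.444, where 36 arrangements allow 0.0556 at the least. The unknown ChIP depth and 6 to 18 H3K27me3 peaks per library limit what can be said of that mark's width and age course on the arm.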

Other observations

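A pair of clone-named genes, picked out after their values were seen, had 1 library far from the rest. si:dkey-11n14.1 had 267.1, 396.4 and 351.8 normalized counts at 5 dpf and 305.5, 522.7 and 100.2 at 7 dpf. At 9 dpf it had 397.0, 10.8 and 418.2. si:dkey-261o4.8 had 38.7, 51.3 and 52.0 at 5 dpf, 29.3, 57.6 and 10.4 at 7 dpf, and 28.4, 0 and 33.4 at 9 dpf. In both genes the second 9 dpf library was the lowest and the third 7 dpf library the next, and neither gene passed in any interval (limma adjusted p = 0.552 and 0.332 from 5 to 9 dpf). The third 7 dpf library was also the lowest of the 9 for crestin (9.45, against 12.8 to 29.3 in the others), for si:dkeyp-100h4.1 (122.8, against 136.2 to 459.1) and for si:dkey-51d8.1 (14.2, against 18.8 to 41.9). These genes too were picked out after their values were seen. How often each library was the lowest over all arm genes was not counted, so nothing about that library was read from them.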
